A study of Mus musculus with 12 samples.

Results

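The genes described here are those of the machinery that carries melanosomes, the pigment granules, along the cytoskeleton of pigmented cells: Rab27a, Rab38, Rab32, Mlph, Sytl2, Myo5a, Myo7a and Mreg. They were chosen by name, as the rows whose mouse Entrez identifier belongs to 1 of the 8 symbols, out of 27179 genes in the count tables, and all 8 of 8 were among the 14219 genes that passed the filter on low values. Retinal pigment epithelium (RPE) RNA was sequenced from male, wild-type C57BL/6J mice, a pigmented inbred strain, bought from a commercial supplier, with no treatment named. The study compared animals aged 5 months (3 mice) with animals aged 22 months (3 mice), using both eyes of each as separate libraries, which gave 6 eyes per age and 12 libraries. Mice 1 and 2 of each age belonged to batch 1 and mouse 3 of each age to batch 2. RPE sheets were detached enzymatically from the opened eyecup after the retina had been lifted off, with no sorting step described, and stranded total RNA libraries were made after ribosomal RNA depletion. The raw counts of an eye summed to 9758665 or more in the young group (at most 13217909) and to 9171131 or more in the aged group (at most 12324029).

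Melanosomes are made in the cell body, filled with melanin-forming enzymes, and then moved to the cell periphery. In melanocytes of the skin, the small GTPase RAB27A sits on the mature melanosome and recruits melanophilin (MLPH), which in turn binds the actin motor myosin Va (MYO5A). In the RPE, RAB27A instead recruits MYRIP, which binds myosin VIIa (MYO7A), and these motors hold and move melanosomes in the apical processes that surround the photoreceptor outer segments. RAB38 and its close relative RAB32 act earlier, on the vesicles that bring tyrosinase-family enzymes to the immature melanosome. Mouse coat colour mutants are known for several of these genes, among them ashen (Rab27a), leaden (Mlph), dilute (Myo5a), chocolate (Rab38) and dilute suppressor (Mreg).

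The first question was whether the transport genes differed between young and aged RPE. Of the 8 genes, Rab38 and Mlph were called lower at 22 months and 0 were called higher, but neither was called when counts were scaled to the summed RPE markers (log2 fold change -0.08 for Rab38 and 0.05 for Mlph). A gene was called when the Benjamini-Hochberg adjusted p of the edgeR quasi-likelihood test on counts summed per mouse, with batch in the model, was under 0.05 and the log2 fold change was beyond 0.25. By the same rule 2.26% of the 14219 genes were called lower and 5.41% higher. Of the 8 genes, 7 had a log2 fold change below 0, against 51.7% of all genes, and 5 were lower at an unadjusted p under 0.05, against 14.6%. Their median log2 fold change was -0.50, beside -0.01 for all genes tested. Scaling to the RPE markers moved the median of all genes to 0.74 and that of the 8 genes to 0.24. The transport genes lay 0.50 below the median of all genes on that scale and 0.49 below it on the scale used here. Rescaling a library moves all its genes by the same factor, so this offset was bound to stay nearly the same. It does not show that a difference remains after scaling to RPE markers.

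**Figure D1:**
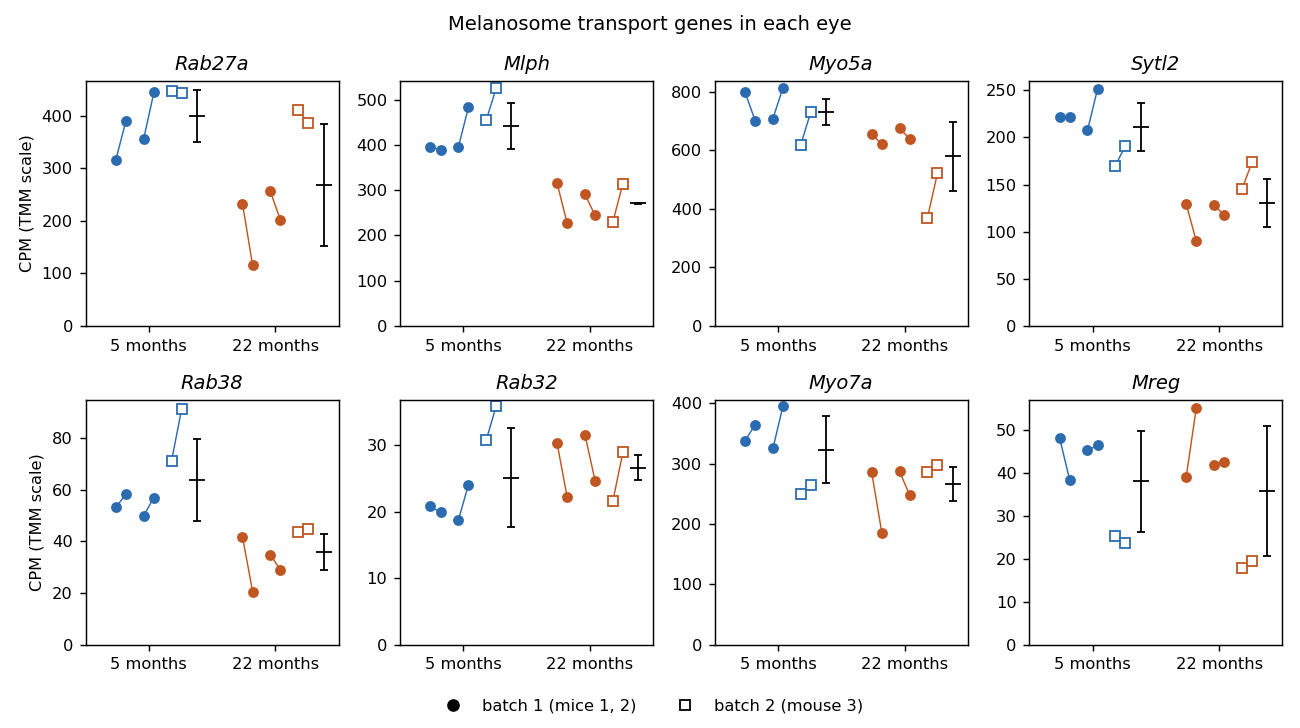
Level of each transport gene in each eye, in CPM on the TMM scale, with the axis starting at 0. Lines join both eyes of a mouse, filled circles are batch 1 and open squares batch 2, and the black bar is the mean with the SD over 3 mice; for Rab38 and Mlph the eyes of the ages did not overlap on this scale, and a scaling to RPE markers brought both genes close to no difference (log2 -0.08 and 0.05).

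The levels of the 8 genes differed widely. Levels are given as CPM, raw counts scaled to a common library size with the TMM factors of edgeR. Per kilobase of exon, which allows genes to be compared, Rab27a stood highest at 5 months with 103 ± 12.8 CPM per kilobase (SD, n = 3 mice), followed by Mlph with 82.5 ± 9.60. The mice of these neighbours overlapped in level. Myo5a followed with 49.5 ± 2.96, Rab38 with 40.3 ± 10.1 and Myo7a with 37.7 ± 6.44 CPM per kilobase, and neighbours within this group overlapped as well. Mreg with 16.6 ± 5.11, Sytl2 with 15.1 ± 1.81 and Rab32 with 10.7 ± 3.17 CPM per kilobase formed the low end, again with overlapping neighbours. The gaps between Mlph and Myo5a and between Myo7a and Mreg were the places where the mice of neighbouring genes did not overlap at 5 months. At 22 months Rab27a was still highest, at 69.2 ± 29.9 CPM per kilobase, and Sytl2 lowest, at 9.37 ± 1.83, although the mice of each overlapped with those of its neighbour, Mlph and Rab32, with Rab38 now below Myo7a (22.7 ± 4.49 against 31.0 ± 3.30, with overlapping mice). Averaged over both ages, Rab27a ranked 315 and Rab32 ranked 4331 of 13589 genes by level per kilobase.

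The label of the samples was checked against cell type markers, since a bulk library mixes the cells it holds. Rpe65, the visual cycle isomerase that defines the RPE, was detected in every library, at 2658 to 5356 CPM per eye at 5 months and 806 to 4988 CPM at 22 months. The summed level of 14 RPE markers ranged from 24404 to 46594 CPM per eye at 5 months (median 36077) and from 8669 to 42503 at 22 months (median 19291), and 0 of the 14 were called in either direction, although 11 were lower at an unadjusted p under 0.05. The 16 rod markers ranged from 1439 to 7683 CPM (median 3281) at 5 months and from 2260 to 32643 (median 13529) at 22 months, and 14 of the 16 were called higher. The highest rod level and the lowest Rpe65 were in the same library, the right eye of 22-month mouse 1. The 6 melanocyte markers were taken to stand for the pigment cells of the choroid, and whether other cells contributed was not tested. They summed to 820 to 1001 CPM (median 883) at 5 months and 398 to 626 (median 479) at 22 months, without overlap. Of the 6, 3 were called lower. Most of this sum was Ednrb, with means over mice of 616 and 312 CPM. For Mc1r, Kit and Erbb3 the eyes of the ages overlapped, and Erbb3 differed least (log2 fold change -0.30; edgeR, adjusted p = 0.363). None of the RPE, rod or melanocyte markers was at 0 in any library. In such bulk samples, fewer cells of a type and less RNA per cell cannot be told apart.

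**Figure D2:**
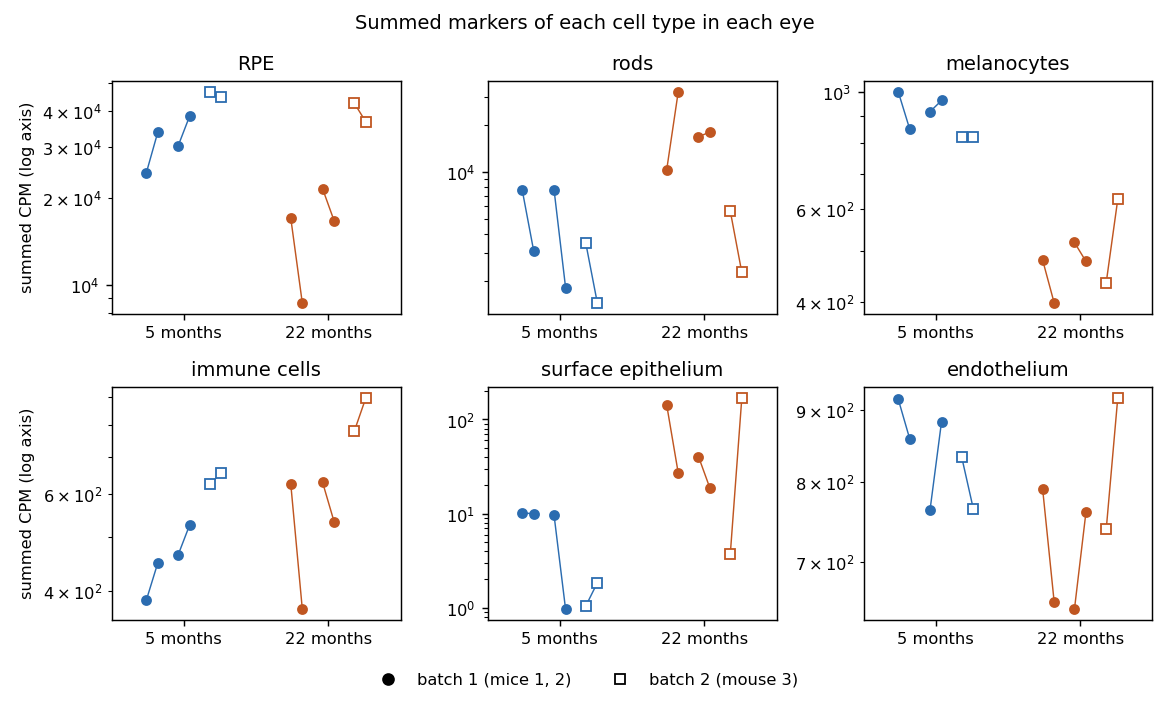
Summed CPM of the marker lists of 6 cell types in each eye, on a log axis; lines join both eyes of a mouse, filled circles are batch 1 and open squares batch 2. RPE markers spanned 24404 to 46594 CPM at 5 months and 8669 to 42503 at 22 months, rod markers spanned 1439 to 7683 and 2260 to 32643, and the melanocyte sum, most of it Ednrb, did not overlap between the ages (820 to 1001 against 398 to 626).

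Rab38, the GTPase that routes tyrosinase-family enzymes to the melanosome (chromosome 7, 88430273 to 88491572, plus strand of GRCm38), showed the largest difference of the 8 genes in the edgeR fit. Its level was 55.4, 53.5 and 82.0 CPM in 5-month mice 1, 2 and 3, and 31.1, 32.3 and 43.9 CPM in the 22-month mice. All mice of 22 months lay below all mice of 5 months, and so did all eyes, at 20.5 to 44.6 CPM against 49.95 to 91.4. The log2 fold change was -0.82 with a standard error of 0.06 (edgeR, adjusted p = 0.0162), which placed Rab38 at rank 11 of 14219 genes by p. The difference was similar in both batches, at -0.78 in batch 1 and -0.90 in batch 2. Both eyes of 22-month mouse 1 differed from each other by 1.02 on the log2 scale, the widest gap between eyes for this gene. With the right eye of that mouse left out, an alternative chosen after seeing the data, the value was -0.68 (adjusted p = 0.0431) and the call stood.

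Rab32, the paralog that shares much of this sorting role with Rab38 (chromosome 10, 10545002 to 10558265, minus strand), had levels of 20.3, 21.4 and 33.6 CPM in the mice of 5 months and 26.1, 28.6 and 25.1 CPM in those of 22 months. The ages overlapped, and the log2 fold change was 0.12 with a standard error of 0.18 (edgeR, adjusted p = 0.676). The batches pointed in opposite directions, at 0.39 in batch 1 and -0.42 in batch 2. As a description chosen after the values were seen, the ratio of Rab38 to Rab32 counts was 2.73, 2.50 and 2.44 in the young mice and 1.19, 1.13 and 1.75 in the aged mice, so that the ages did not overlap. This ratio does not depend on how libraries are scaled, but it can change with the mix of cells, a part that was not tested. The ratio of Rab38 to Rpe65 counts overlapped between the ages, at 0.0151 to 0.0175 in young mice and 0.00962 to 0.0264 in aged mice. That of Mlph to Rpe65 overlapped as well, at 0.0944 to 0.124 in young mice and 0.0593 to 0.229 in aged mice.

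Rab27a, which marks the mature melanosome and recruits its motor adaptors (chromosome 9, 73044854 to 73097629, plus strand), measured 350.0, 400.5 and 449.3 CPM in the 5-month mice and 174.1, 233.1 and 397.7 CPM in the 22-month mice. The first pair of aged mice lay far below the young range while 22-month mouse 3, of batch 2, lay within it, and 4 of the 6 aged eyes were below all young eyes. The log2 fold change was -0.65 with a standard error of 0.19 and did not pass the adjustment (edgeR, adjusted p = 0.0898). The value was -0.88 in batch 1 and -0.18 in batch 2. In the deposited batch-corrected and normalized values, the aged eyes ran from 1935 to 3404 and the young eyes from 3931 to 5218, without overlap. The ratio of Rab27a to Rpe65 counts overlapped between the ages, at 0.0857 to 0.113 in young mice and 0.0871 to 0.148 in aged mice.

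The 2 adaptor genes of the group, Mlph and Sytl2, had nearly the same estimate with different spread. Mlph, the link between RAB27A and myosin Va (chromosome 1, 90915085 to 90951142, plus strand), was at 392, 439 and 494 CPM in the 5-month mice and at 270, 271 and 271 CPM in the 22-month mice. Neither mice nor eyes of the ages overlapped, with eyes at 388 to 526.1 CPM against 227 to 316. The log2 fold change was -0.70 with a standard error of 0.09 (edgeR, adjusted p = 0.0258), and it was -0.62 in batch 1 and -0.87 in batch 2. Sytl2, a RAB27A effector that tethers melanosomes at the plasma membrane in melanocytes (chromosome 7, 90302252 to 90410719, plus strand), was at 221, 230 and 182 CPM in young mice and at 109, 124 and 159 CPM in aged mice. Its mice did not overlap, while the eye ranges did, and 5 of the 6 aged eyes were below all young eyes. Its log2 fold change was -0.70 with a standard error of 0.17 and was not called (edgeR, adjusted p = 0.0604), with -0.95 in batch 1 and -0.20 in batch 2.

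The motors differed less than the adaptors in their estimates. Myo5a, the actin motor of melanosomes in melanocytes (chromosome 9, 75071015 to 75223688, plus strand), was at 752, 763 and 682 CPM in the 5-month mice and 634, 662 and 443 CPM in the 22-month mice. The mice of the ages did not overlap but the eyes did, and the log2 fold change was -0.36 with a standard error of 0.11 (edgeR, adjusted p = 0.0963). Here batch 2 gave the wider gap, at -0.62 against -0.22 in batch 1. Myo7a, the motor that moves melanosomes and phagosomes in the RPE and the gene of Usher syndrome type IB (chromosome 7, 98051060 to 98119524, minus strand), was at 349, 361 and 260 CPM in young mice and 235, 271 and 291 CPM in aged mice. The ages overlapped, with a log2 fold change of -0.27 and a standard error of 0.15 (edgeR, adjusted p = 0.271). In batch 1 the aged mice were lower, at -0.49, and in batch 2 the aged mouse was higher, at 0.16. Mreg, a cargo-sorting protein linked to melanosome transfer and, in the RPE, to phagosome degradation (chromosome 1, 72159442 to 72212307, minus strand), was at 43.5, 45.9 and 24.6 CPM in young mice and 46.6, 42.2 and 18.6 CPM in aged mice. Mreg followed the batch rather than the age, with a batch effect of -1.06 on the log2 scale and an age difference of -0.13 with a standard error of 0.10 (edgeR, adjusted p = 0.404).

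**Figure D3:**
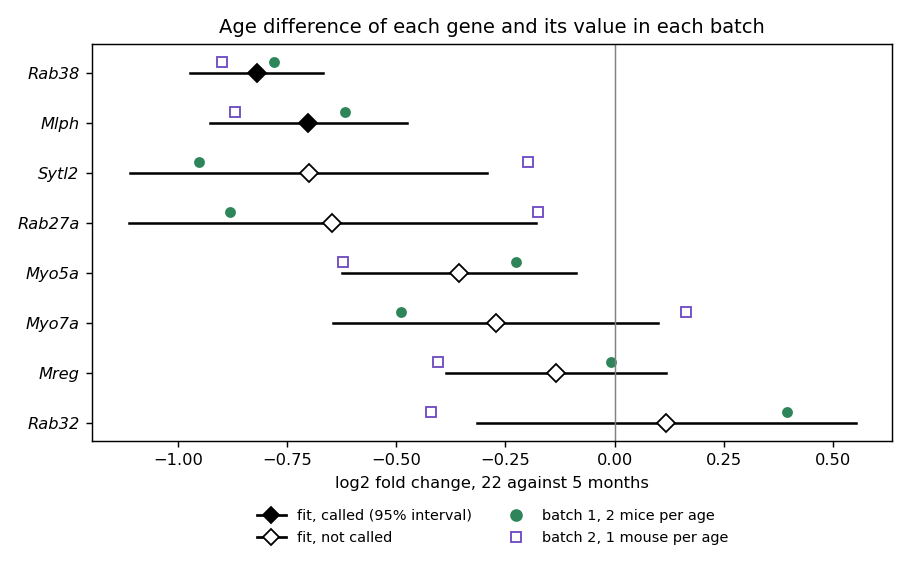
Log2 fold change of each transport gene, 22 against 5 months. Diamonds and lines are the edgeR estimate and its 95% interval over 3 mice per age (filled where called), green circles the ratio in batch 1 and open purple squares that in batch 2. Rab38 and Mlph had values beyond -0.25 in both batches on this scale, and -0.08 and 0.05 when scaled to RPE markers. How many of all genes passed -0.25 in both batches was not counted.

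The mice of the ages were apart, with 22 months lower, for 4 of the 8 genes (Rab38, Mlph, Myo5a and Sytl2), against 6.60% of all genes, and the eyes were apart for 2 of the 8, against 1.59%. In the deposited normalized values, 4 of the 8 genes had eyes apart (Rab27a, Rab38, Myo5a and Mlph), against 6.59% of all genes. Values below 0 were seen in both batches for 6 of the 8 genes, and values beyond -0.25 in both batches for 2, Rab38 and Mlph. How many of all genes did so was not counted, so these counts are a description only. Within batch 1 alone, which is what remains of the age difference when either mouse 3 is left out, 5 genes were called lower (Rab27a, Rab38, Myo7a, Mlph and Sytl2) and Rab32 was called higher, while 8.80% and 8.90% of all genes were called lower and 12.2% and 12.1% higher in those fits. Without 22-month mouse 1 or without 22-month mouse 2, 0 of the 8 genes and 0 of all genes were called lower, so that 0 of 8 tells nothing of the transport genes in particular. Without 5-month mouse 2, Rab38 alone was called, in a fit that called 0.183% of all genes lower. The age by batch interaction was tested for each gene, and 0 of the 8 and 0 of 14219 genes (0%) passed an adjusted p of 0.05 with edgeR. That fit left 2 residual degrees of freedom. The smallest adjusted p of the 8 was 0.177, shared by Rab32 (-0.81) and Sytl2 (0.75), and with DESeq2 on the same counts Sytl2 alone of the 8 passed (0.76, adjusted p = 0.0313), against 2.28% of the 10635 genes given an adjusted p.

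The choice of test moved the number of transport genes called. With filterByExpr in place of the count filter, Sytl2 joined the called genes (-0.73; edgeR, adjusted p = 0.0496). DESeq2 on mouse sums, a voom fit on eyes with mouse as a random effect, and DESeq2 on the batch-corrected eyes each called 5 genes lower, adding Rab27a, Myo5a and Sytl2 to Rab38 and Mlph. These fits also called 6.07%, 8.32% and 9.66% of all genes lower. Using left eyes alone, right eyes alone, no batch term or the rod score as a covariate, 0 of the 8 genes were called. These fits called few genes of any kind lower, at 0.471%, 0.0211%, 0% and 0.471% of all genes tested, so that 0 of 8 tells nothing of the transport genes in particular. With the rod score in the model, Rab38 stood at -0.59 (limma, adjusted p = 0.106) and Mlph at -0.48 (limma, adjusted p = 0.115). Beside these genes, 14 of 16 rod markers, 7 of 14 inner retina markers and 6 of 9 tested immune markers were called higher and 3 of 6 melanocyte markers lower. The part of these cell types in the result was not tested, apart from the fits with the rod score and with RPE-marker scaling.

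**Figure D4:**
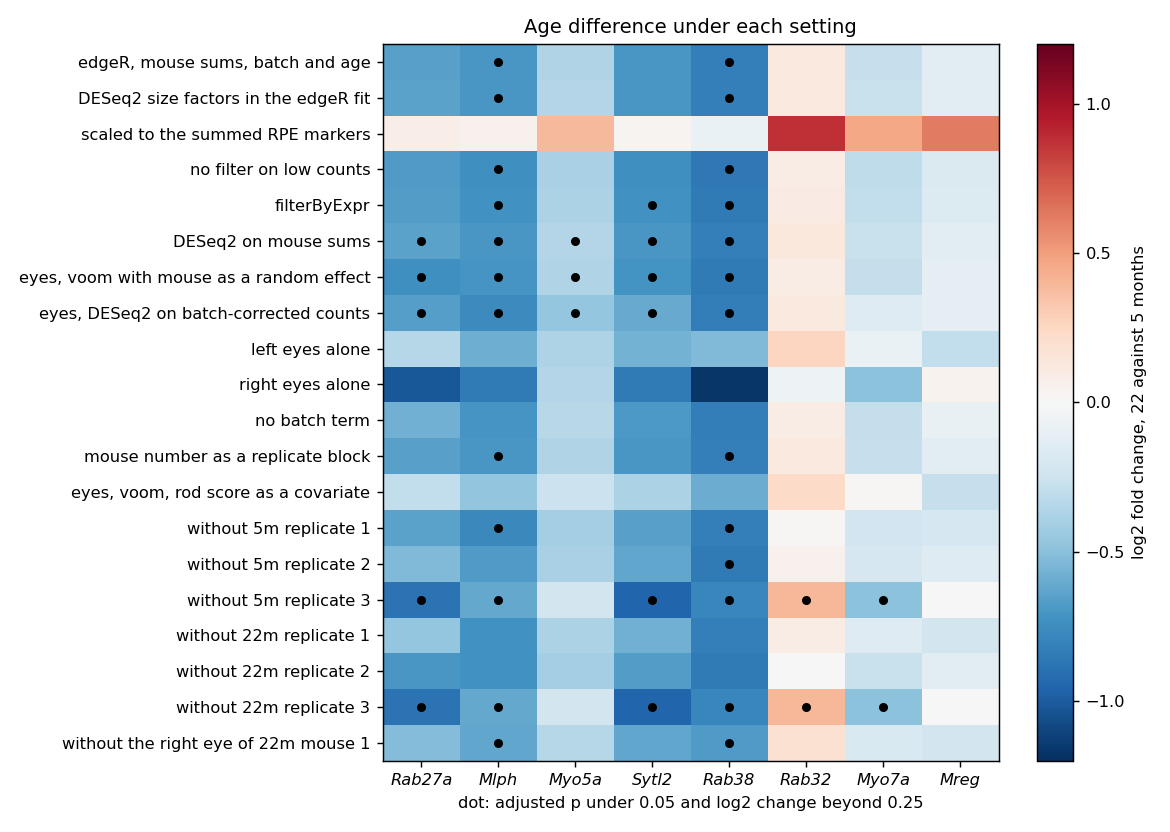
Log2 fold change of each transport gene (columns) under each setting (rows), with colour from -1.2 (blue) to 1.2 (red) and a dot where the adjusted p was under 0.05 and the change beyond 0.25. Rab38 carries a dot in 13 and Mlph in 12 of 20 rows, 3 of the fits add Rab27a, Myo5a and Sytl2, and scaling to RPE markers left all genes but Rab38 above 0.

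Promoter sequence was examined because Mitf, the transcription factor that drives melanosome genes and binds the E-box letters CACGTG and CATGTG, was itself among the genes called lower. It was picked after its values were seen, and measured 289 ± 17.2 CPM (SD, n = 3) at 5 months and 155 ± 15.2 CPM at 22 months, a log2 fold change of -0.90 with a standard error of 0.10 (edgeR, adjusted p = 0.0218). Its value was not examined under RPE-marker scaling, which moved all genes up by a median of 0.74. In the same libraries 3 of 6 melanocyte markers were called lower, and the part of each cell type in the Mitf difference was not tested. RefSeq windows of 300 bases, from 250 before to 50 after each annotated start on GRCm38.p6, matched 6 of the 8 genes with 9 windows. CACGTG, which is its own reverse complement, was found in 2 windows, 1 of Mlph and 1 of Rab27a, against 7.15% of 32851 promoters. CATGTG, searched on both strands as CATGTG or CACATG, was found in 1 window of Myo7a and nowhere else among the 8 genes, against 14.2% of promoters. TAATCC or GGATTA, the letters that the RPE and photoreceptor factor OTX2 binds, was in 0 of the 9 windows, against 7.06%. Among 9 melanosome protein genes, 5 had a window, and CATGTG or CACATG was in all 5 of those, CACGTG in 0 and TAATCC or GGATTA in 2 (Dct and Tyrp1). The E-box letters were chosen as those of a factor known to drive melanosome genes, so these matches are no independent support. Binding and regulation were not tested. The 3 windows with a match follow, 5′ to 3′ on the strand of the gene, with the E-box letters in capitals. Positions count from the annotated start. The CACGTG of Mlph began at position -48 (chr1:90914850-90915149, plus strand), that of Rab27a began at position -246 from a start inside the gene (chr9:73063898-73064197, plus strand), and the letters CACATG of Myo7a began at positions -139 and -110 from an inner start (chr7:98109199-98109498, minus strand).
Mlph: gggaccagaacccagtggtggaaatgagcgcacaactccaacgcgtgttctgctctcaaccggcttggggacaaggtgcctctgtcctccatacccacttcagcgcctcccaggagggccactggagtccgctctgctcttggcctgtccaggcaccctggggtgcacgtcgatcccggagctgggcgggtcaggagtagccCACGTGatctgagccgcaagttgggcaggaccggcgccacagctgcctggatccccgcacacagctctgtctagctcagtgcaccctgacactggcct
Rab27a: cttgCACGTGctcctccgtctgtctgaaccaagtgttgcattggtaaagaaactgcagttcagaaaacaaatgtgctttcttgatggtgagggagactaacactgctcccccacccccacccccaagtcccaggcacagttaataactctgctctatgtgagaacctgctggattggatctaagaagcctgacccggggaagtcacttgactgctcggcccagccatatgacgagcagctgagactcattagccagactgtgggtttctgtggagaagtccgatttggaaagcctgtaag
Myo7a: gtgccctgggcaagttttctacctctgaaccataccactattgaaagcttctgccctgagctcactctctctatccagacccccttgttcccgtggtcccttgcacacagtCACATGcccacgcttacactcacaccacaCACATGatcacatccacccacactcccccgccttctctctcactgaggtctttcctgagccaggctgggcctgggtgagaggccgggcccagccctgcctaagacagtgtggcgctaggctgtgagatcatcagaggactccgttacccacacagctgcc
The other 6 windows, of Mreg, Rab32, Myo5a and the outer starts of Rab27a and Myo7a, held none of these letters. Of the genes with a match, Mlph was called lower and Rab27a and Myo7a were not. Rab38, the other gene called lower, and Sytl2 had no window and could not be searched.

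Rab27 itself works through further effectors, and 8 genes were listed for them, Rab27b and the effectors other than Mlph and Sytl2. Of the 6 that passed the filter, 0 were called in either direction by edgeR, as by DESeq2 on mouse sums, and their median log2 fold change was 0.20. An unadjusted p under 0.05 was reached by 1 gene downward and 1 upward, beside 14.6% of all genes downward and 2340 of 14219 upward. Myrip, the RPE link from RAB27A to myosin VIIa, was at 357, 429 and 388 CPM in young mice and 189, 266 and 376 CPM in aged mice. The ages overlapped, and the log2 fold change was -0.54 with a standard error of 0.21 (edgeR, adjusted p = 0.147), with -0.79 in batch 1 and -0.04 in batch 2. The ratio of Rab27a to Myrip counts also overlapped, at 0.933 to 1.16 in young and 0.877 to 1.06 in aged mice. Unc13d, a RAB27A effector of granule secretion, had the smallest p of this list, at a log2 fold change of 0.55 (edgeR, adjusted p = 0.0947).

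Genes that load, modify or regulate these Rabs were counted next. Of 10 Rab regulators, all tested, 0 were called by edgeR and 1 was called higher by DESeq2 on mouse sums, which called 10.6% of all genes higher. An unadjusted p under 0.05 was reached by 2 downward and 1 upward, beside 14.6% of all genes downward and 2340 of 14219 upward. The 2 with the smallest p were Madd, an exchange factor for Rab27 and Rab3, at 0.88 (edgeR, adjusted p = 0.0525), and Chml, a Rab escort protein, at -0.25 (edgeR, adjusted p = 0.103). Of 8 other Rabs and Rab effectors of melanosomes, 0 were called by edgeR and 1 was called lower by DESeq2 on mouse sums (6.07% of all genes). At an unadjusted p under 0.05, 2 were lower, against 14.6% of all genes. All 8 had values below 0, against 51.7% of all genes, with a median of -0.24. Rilp, which links RAB7 to dynein, was at -0.49 (edgeR, adjusted p = 0.0697) and Rab7, which acts in melanosome maturation and inward movement, at -0.24 (edgeR, adjusted p = 0.113).

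Of 13 further motors and actin factors, 12 were tested, 1 was called lower and 1 higher, against 2.26% and 5.41% of all genes, with a median of 0.12. Spire2, an actin nucleator that works with myosin V, fell from 54.0 ± 8.29 to 34.4 ± 11.2 CPM (log2 fold change -0.69, standard error 0.13; edgeR, adjusted p = 0.0421). Myo5c, a myosin V of glandular and surface epithelia, rose from 1.62 ± 0.214 to 3.19 ± 0.223 CPM (log2 fold change 0.98, standard error 0.19; edgeR, adjusted p = 0.0425). With the mouse number as a block, 0 of these motor genes were called higher, in a fit that called 4.53% of all genes higher. Markers of surface epithelium moved in the same libraries, from 0.965 to 10.2 CPM in summed level at 5 months (median 5.76) to 3.70 to 170 CPM at 22 months (median 33.6), with 3 of the 4 tested of 5 called higher and Krt14 at 0 in 5 eyes. Their part in the Myo5c result was not tested. Under scaling to RPE markers 5 motor genes were called higher and 0 lower, in a fit that called 20.3% of all genes higher and 0.105% lower.

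The melanosome proteins that the machinery carries showed the most calls of any partner list. Of 9 genes, all tested, 7 were called lower and 0 higher, against 2.26% and 5.41% of all genes, with a median of -0.80. When scaled to RPE markers 0 were called lower, in a fit that called 0.105% of all genes lower. Slc45a2, a melanosomal transporter, measured 184 ± 38.6 CPM at 5 months and 88.6 ± 20.4 CPM at 22 months (log2 fold change -1.06; edgeR, adjusted p = 0.0162). Pmel, the fibril protein of the immature melanosome, stood at -0.99 (edgeR, adjusted p = 0.0195), Tyrp1, a melanin-forming enzyme, at -1.01 (edgeR, adjusted p = 0.0226), and Slc24a5, an ion exchanger, at -0.80 (edgeR, adjusted p = 0.0254). Of the melanocyte markers, Ednrb, Pax3 and Sox10 fell in the same libraries, with a mean over mice of 616 and 312 CPM for Ednrb and 192 and 115 CPM for Sox10. RPE and choroidal melanocytes both make these proteins, and the part of each in the result was not tested.

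The partners of myosin VIIa in the Usher protein network, which in photoreceptors and hair cells anchor the motor to membranes, differed in the other direction. Of 8 genes, 7 were tested, and 2 were called higher and 0 lower, against 5.41% and 2.26% of all genes. All 7, and 6869 of all 14219 genes, had values above 0, and the median of the 7 was 0.61. Of the 2 called, Pcdh15, a protocadherin of the network, was at 27.8 ± 22.4 CPM at 5 months and 65.9 ± 52.3 CPM at 22 months (log2 fold change 1.14; edgeR, adjusted p = 0.0425). With the mouse number as a block 4 were called higher (4.53% of all genes), and without the right eye of 22-month mouse 1, an alternative chosen after seeing the data, 1 was (3.18% of all genes). These are genes of photoreceptors, and 14 of 16 rod markers rose beside them (medians of 3281 and 13529 CPM), a part that was not tested.

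**Figure D5:**
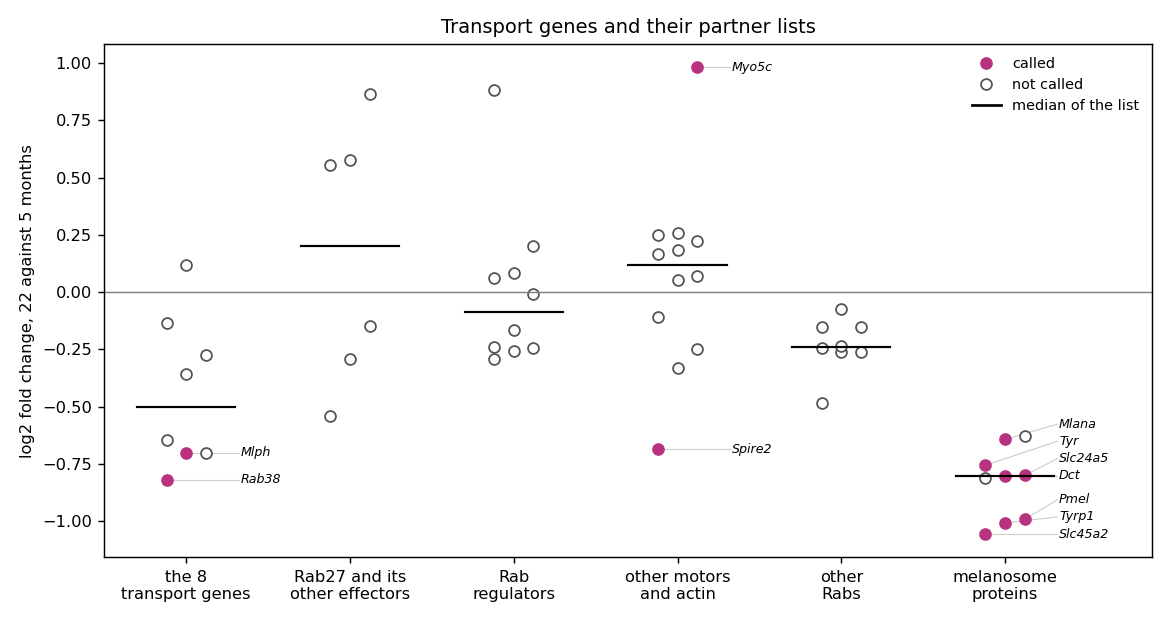
Log2 fold change, 22 against 5 months, of the 8 transport genes and of each tested gene of 5 partner lists. Each circle is a gene, filled and named where called, and bars are list medians, which were -0.50 for the transport genes and -0.80 for melanosome proteins. Scaling to RPE markers moved all genes up by a median of 0.74, after which no transport gene and no melanosome protein was called lower. That fit called 0.105% of all genes lower.

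The transport genes also differed in how they varied from library to library. Over the 12 libraries, with log2 CPM centred within each batch, Rab27a varied most like Myo7a among the 8 genes (Pearson r = 0.94) and like Sytl2 (r = 0.93). Rab38 varied like Mlph (r = 0.93), and Mlph like Myo5a (r = 0.90). Rab38 and Rab32, the related GTPases, had r = 0.07, and Myo7a and Mreg had r = -0.46. These values describe 12 libraries from 6 mice that share depth, dissection and age, and carry no test. Across all 14219 genes, genes among the 3 most like Rab27a were Slc16a9 and Inpp5k (r = 0.997 for each), while those most like Rab38 were Dct, the melanin-forming dopachrome tautomerase (r = 0.97), Zfyve21 and Vgll4. Mlph was most like Wsb2 (r = 0.98), Sytl2 like Rasgrp3 (r = 0.996), Myo7a like Ccdc141 (r = 0.98), Myo5a like Foxf2 (r = 0.97), Rab32 like Tlr7 (r = 0.96) and Mreg like Ogdhl (r = 0.94).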

How the data were processed

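RNA-seq of RPE from 12 eyes of 6 mice was analysed. After FastQC and Trimmomatic, the authors mapped the reads to mm10 (HISAT2) and assigned them to genes (featureCounts), for which versions and the strand option were not found in the labels or methods. The deposited raw values are whole-number read counts. The authors removed batch differences with ComBat-seq, which gave values treated as estimated counts, and dividing these by DESeq2 size factors gave the deposited normalized signal. Of 27179 Entrez identifiers, 25275 matched RefSeq (GRCm38.p6) and 18 more GENCODE.

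Raw counts were summed per mouse, so that the animal was the replicate, and fitted with edgeR 4.0.16 (R 4.3.3; TMM, batch and age, 3 residual degrees of freedom) over genes with a mean normalized count of at least 20. p-values were adjusted over all genes tested, and each standard error was the absolute log2 fold change over the root of F. The fit was tested on simulated data. Alternatives used DESeq2 1.42.0, limma 3.58.1 (voom), other scalings and filters, single eyes, other covariates, a block, or left out a mouse.

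The members, lists and tests were chosen with earlier results of these data known. All 8 members were described. Of each partner list the called genes were named, at most 4 by smallest p, or, where a list had no call, the 2 of smallest p, besides Myrip and Rpe65 and, for each member, genes among the 3 most alike in pattern. Mitf was added after its values were seen. A few genes that the rule names are not reported here. Deviations of same-numbered mice of the ages correlated at 0.77, 0.61 and 0.85 across genes, and those of differently numbered mice of batch 1 at 0.61 and 0.52. The numbers label separate animals and follow the batch, so the block stands as an alternative.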

Additional observations from a re-analysis of the deposited data

How the results depend on the processing

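These results are limited by 3 mice per age, by 1 mouse per age in batch 2 and by marker levels that moved with age. The lowest raw count of a transport gene in an eye was 193, for Rab32. The number of transport genes called lower was 2 and became 0 with RPE-marker scaling, left eyes alone, right eyes alone, no batch term or the rod score as a covariate, fits that called 0.105%, 0.471%, 0.0211%, 0% and 0.471% of all genes lower, and 5 with DESeq2 on mouse sums, voom on eyes or DESeq2 on batch-corrected counts. Leaving out each mouse gave 0 to 5 called lower and 0 to 1 called higher. RPE-marker scaling gave log2 fold changes of 0.079 for Rab27a, 0.39 for Myo5a, 0.46 for Myo7a, 0.055 for Mlph, 0.63 for Mreg, 0.037 for Sytl2 and 0.18 for Myrip, against negative values for each in the main fit. Right eyes alone turned Rab32 to -0.056 and Mreg to 0.045, and the rod covariate turned Myo7a to 0.017. The cause of these shifts was not tested.

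Partner lists moved as follows. RPE-marker scaling called 20.3% of all genes higher and 0.105% lower. Called higher with it were 3 Rab27 effectors, 1 Rab regulator, 5 motors and 5 Usher partners, and called lower 0 motors and 0 melanosome proteins. Left eyes, right eyes, no batch term and the rod covariate each gave 0 motors in either direction and 0 Usher partners higher, with 4, 0, 0 and 3 melanosome proteins lower. They called at most 0.471% of all genes lower and at most 0.935% higher. DESeq2 on mouse sums, voom on eyes and DESeq2 on batch-corrected counts each gave 2 motors and 1 other Rab lower, 1 Rab regulator and 4 Usher partners higher. They called 6.07%, 8.32% and 9.66% of all genes lower and 10.6%, 11.1% and 13.7% higher. Voom and the batch-corrected fit each gave 2 motors and 1 Rab27 effector higher, and voom 1 Rab27 effector and 1 Rab regulator lower. No filter and filterByExpr each gave 1 Rab regulator higher, and called 4.21% and 6% of all genes higher. Without the right eye of 22-month mouse 1, added after seeing the data, 1 Usher partner was higher (3.18% of all genes). Leaving out each mouse gave, for Rab27 effectors and Rab regulators, 0 to 2 lower, for Rab regulators 0 to 1 higher, for motors 0 to 2 lower and 0 to 3 higher, for other Rabs 0 to 2 lower, for melanosome proteins 0 to 9 lower and for Usher partners 0 to 5 higher. Those fits called 0% to 8.90% of all genes lower and 0.00703% to 12.2% higher. The transport genes called in the age by batch interaction numbered 0 with edgeR and 1 with DESeq2 (2.28% of all genes with DESeq2). Of the 24 genes most alike in pattern, 1 was shared when the 6 mouse sums replaced the libraries. With the mouse number as a replicate block, 2 transport genes were called lower (Rab38, adjusted p = 0.0163; Mlph, adjusted p = 0.0329; edgeR), 0 motors and 4 Usher partners higher, and 6 melanosome proteins lower, while the counts of the other lists did not change. That fit called 1.29% of all genes lower and 4.53% higher.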
